A study of Mus musculus with 10 samples.

Results

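Apolipoprotein E (Apoe), apolipoprotein C1 (Apoc1) and 8 genes of cellular cholesterol efflux and its control (Abca1, Abcg1, Nr1h2, Nr1h3, Pltp, Lpl, Mylip and Pparg) were followed in Ly6C-high monocytes sorted from mouse spleens. The 10 genes were found by their symbol among the 24421 symbols that all 10 RNA sequencing libraries share. All 10 were also among the 12938 genes tested, which stood at 1 TPM (transcripts per 1e6 transcripts, a measure of level that is corrected for gene length) or more in at least 3 libraries. The list was drawn up with earlier results from these libraries known, in which Apoe and Apoc1 were low in Foxp3DTR mice. Differences that involve Foxp3DTR mice are therefore given for these 10 genes as a description, without a test.

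The libraries came from male mice aged 8 to 10 weeks, and cells were taken on day 5 after surgery. In 3 libraries the mice were wild type (WT, C57BL/6) and had sham surgery, in which the chest was opened and no vessel was tied (replicates 1, 2 and 3). In 3 libraries WT mice had a myocardial infarction (MI), for which the left anterior descending artery was tied off for good (replicates 2, 3 and 4), and in 4 libraries Foxp3DTR mice had the same MI (replicates 1 to 4). Foxp3DTR mice express the human receptor for diphtheria toxin from the Foxp3 promoter, so that the toxin kills regulatory T-cells (Tregs). For Treg ablation the toxin was given at 500 ng on day 2 and on day 1 before the operation and at 250 ng on day 2 after it, and all operated mice received buprenorphine. The depletion of Tregs by this scheme is described as partial. The study describes toxin-treated WT mice as the comparator of Foxp3DTR mice, so that the single WT MI group here was inferred to have had the toxin. The protocol text is the same for every sample and speaks of the second dose after either kind of surgery, so that it does not settle whether the sham mice had the toxin. Genotype and Treg depletion cannot be told apart in these groups, and neither can the toxin if the WT MI mice had none. The comparison of Foxp3DTR MI with WT sham adds the surgery to them, and perhaps the toxin. The study counts animals in its groups. The labels do not tie libraries to animals, and each library was taken as a separate animal.

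Cells were sorted as Ly6C-high, CD115+, CD11b+ and F4/80+ without Ly6G once T-cells and B-cells had been taken out, and the RNA put into each library was in the picogram range. All 10 markers of Ly6C-high monocytes were measured in each group, Ly6c2 between 1498 and 4757 TPM and Ccr2 between 906 and 1749 TPM. Foxp3 was at 0.40 to 7.26 TPM in sham, 0.76 to 5.88 TPM in WT MI and 4.87 to 5.82 TPM in Foxp3DTR MI libraries, which in sorted monocytes is no check of the depletion. Depth, inferred from the tables, was 3.13 to 8.40 M reads of 50 bases (M, 1e6). Sham library 3 stood apart by RNA of other cells, with summed markers of 180 TPM for T-cells, 257 TPM for B and plasma cells and 221 TPM for erythroid cells, against at most 25.7, 24.1 and 55.0 TPM in the other sham libraries. Several results that rest on it are also given without it.

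Cells shed surplus cholesterol to acceptor particles outside the cell. The membrane transporters ABCA1 and ABCG1 load it onto apolipoprotein A1 and high-density lipoprotein (HDL), and macrophages also secrete APOE, which takes up lipid from these transporters. The liver X receptors LXRα (Nr1h3) and LXRβ (Nr1h2) sense oxidised sterols as partners of retinoid X receptors and switch on Apoe, Apoc1, Abca1, Abcg1, Pltp, Lpl and Mylip in macrophages, while PPARγ (Pparg) acts upstream of Nr1h3. These receptors bind direct repeats of the motif AGGTCA, with 4 bases between the copies for LXR (DR4) and 1 base for PPAR (DR1).

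Apoe and Abca1 differ in where their known LXR elements lie, since that of Abca1 is in its promoter while those of Apoe are in the multi-enhancer elements downstream of the gene. The 250 bases upstream of the start site of both genes are shown for that reason, from RefSeq on GRCm38.p6, at chr7:19699189-19699438 for Apoe and chr4:53159896-53160145 for Abca1, both on the minus strand. Capitals mark the best match to a DR4 where it differs at 3 letters or fewer, which leaves Apoe without capitals.
Apoe: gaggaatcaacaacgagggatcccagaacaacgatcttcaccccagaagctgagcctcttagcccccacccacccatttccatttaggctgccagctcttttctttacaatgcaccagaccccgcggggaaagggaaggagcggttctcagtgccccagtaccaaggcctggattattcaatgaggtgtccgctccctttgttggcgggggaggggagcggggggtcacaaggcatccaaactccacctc
Abca1: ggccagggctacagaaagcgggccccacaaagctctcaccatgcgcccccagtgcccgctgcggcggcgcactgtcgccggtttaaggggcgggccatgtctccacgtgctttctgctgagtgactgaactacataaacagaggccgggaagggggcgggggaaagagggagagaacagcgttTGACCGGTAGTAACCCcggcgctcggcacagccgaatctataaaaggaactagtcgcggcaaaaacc
The capitals in Abca1 are, on the other strand, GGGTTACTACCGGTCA, which differs from a DR4 at 3 letters outside the spacer and lies 67 to 52 bases upstream of the start site. A match at least as close was held by 18.5% of 32851 promoter windows of the same length. The best match of Apoe differed at 5 letters, and 99.5% of the windows held one at least as close. The exact DR4 was held by 0.0152% of the windows and the exact DR1 by 0.0335%, and neither was in the windows of the 7 of the 10 genes found in the RefSeq table (Apoe, Abca1, Nr1h2, Nr1h3, Pltp, Mylip and Pparg). The single motif AGGTCA, searched on both strands like the repeats that contain it, was in 14.0% of the windows and, of these 7, in Pparg alone, 28 to 23 bases upstream of a start site 193 bases from the gene start in the deposited tables. These are matches of letters in 1 window, and Apoc1, Abcg1 and Lpl were not searched.

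Apoe (chr7:19696244-19699188, minus strand, build mm10), the lipoprotein ligand of the LDL receptor family, was the most abundant of the 10 genes by group mean in every group. It stood at 1049, 971 and 353 TPM in sham libraries 1, 2 and 3. In WT MI libraries 2, 3 and 4 it stood at 886, 696 and 801 TPM. In Foxp3DTR MI libraries 1 to 4 it stood at 159, 60.7, 168 and 187 TPM. Every Foxp3DTR library was below all 6 WT libraries, and sham library 3 was the lowest WT library. The means were 791 ± 381 TPM in sham (SD, n = 3), 794 ± 95.4 TPM in WT MI (SD, n = 3) and 144 ± 56.6 TPM in Foxp3DTR MI (SD, n = 4). The log2 fold change of scaled TPM + 1 between Foxp3DTR MI and WT MI was -2.81 (SE 0.47), a 7.04-fold lower level and the third lowest of all 12938 changes. In bulk RNA of a sorted population, fewer cells of a type that carries the RNA and less RNA per cell cannot be told apart.

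**Figure D1:**
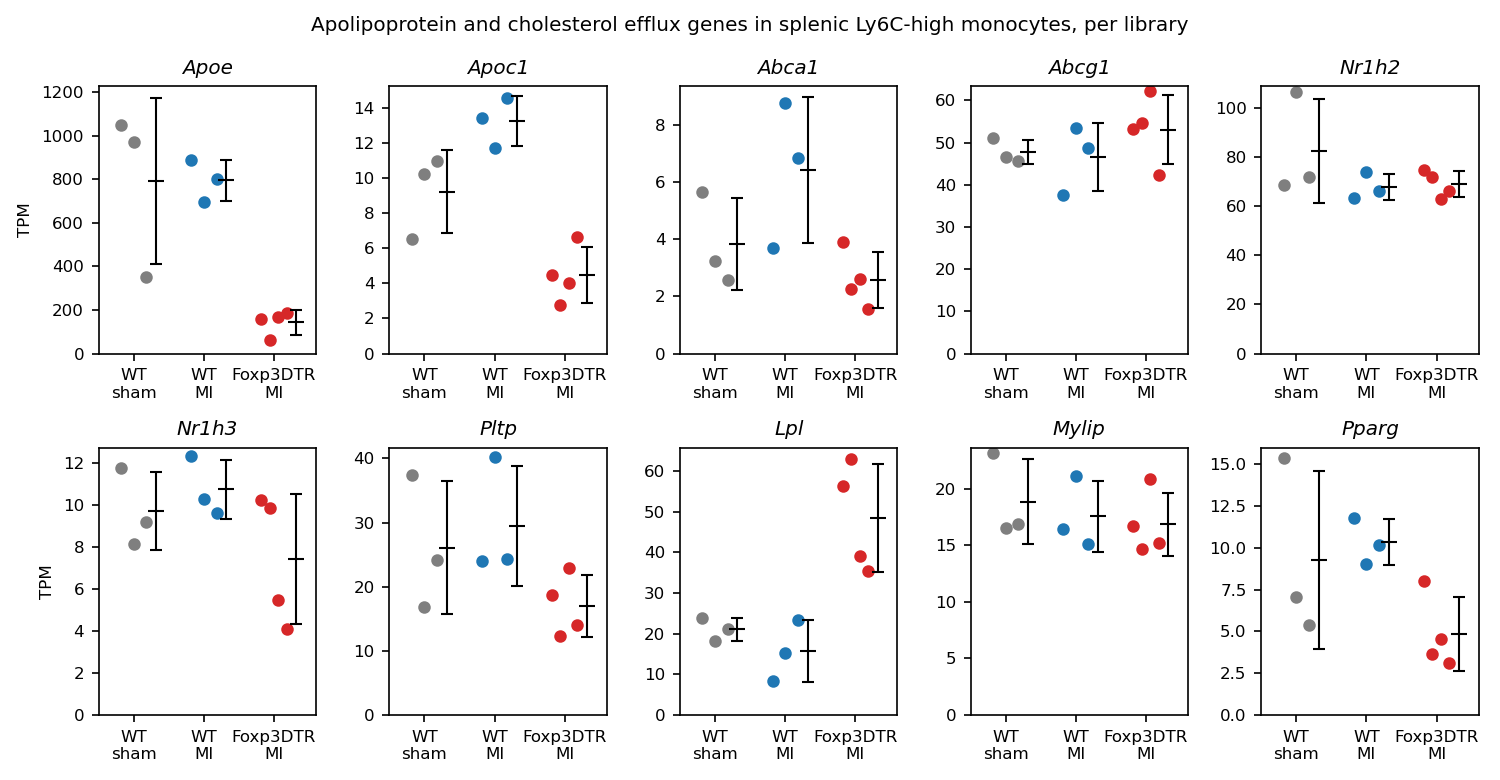
TPM of the 10 genes in each library (points), with the group mean and SD (black bars, n = 3 in WT sham, 3 in WT MI and 4 in Foxp3DTR MI), each panel with its own linear axis from 0. All 4 Foxp3DTR points of Apoe lie at or below 187 TPM and all WT points at or above 353 TPM, while Lpl has its 4 Foxp3DTR points above the other 6.

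The place of Apoe within each library shows the same split without any scaling. Ranked among all genes of its library it was number 80, 90 and 318 in sham, 92, 126 and 106 in WT MI, and 1035, 3290, 972 and 781 in Foxp3DTR MI. Of the summed TPM of the 10 genes, Apoe made up 63.0 to 81.2% in sham, 74.1 to 82.3% in WT MI and 20.5 to 49.8% in Foxp3DTR MI. The sum itself was 561 to 1292 TPM, 940 to 1077 TPM and 296 to 406 TPM in these groups. In the ranking of the 10 genes by mean level, Apoe was followed by Nr1h2 in all groups, and their ranges overlapped in Foxp3DTR MI only. Abca1 was last in all groups.

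Apoc1 (chr7:19689480-19692659, minus strand), whose product rides on lipoproteins and hinders their uptake, is the neighbour of Apoe, with its end 3585 bases from the start coordinate of Apoe in the gene cluster they share. Its levels were 6.52, 10.25 and 10.96 TPM in sham, 13.4, 11.7 and 14.6 TPM in WT MI and 4.48, 2.78, 4.05 and 6.65 TPM in Foxp3DTR MI. All Foxp3DTR libraries were below all WT MI libraries, but library 4 was just above the lowest sham library. The means were 9.24 ± 2.38, 13.2 ± 1.42 and 4.49 ± 1.61 TPM (SD, n = 3, 3 and 4), with a log2 fold change of -1.63 (SE 0.28) between Foxp3DTR MI and WT MI. These levels rest on few reads, roughly 4.9 to 12.9 per library in sham, 11.7 to 14.6 in WT MI and 2.8 to 6.8 in Foxp3DTR MI, as reckoned from coverage and the annotated transcript of 432 bases. Since both genes were low in Foxp3DTR MI, the ratio of Apoe to Apoc1 in TPM moved less than Apoe, from 55.0 to 66.0 in WT MI to 21.8 to 41.5 in Foxp3DTR MI. In sham it ran from 32.2 to 161.

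The efflux transporters did not share a pattern. Abca1 (chr4:53030789-53159895, minus strand), which loads cholesterol onto lipid-poor apolipoproteins, was at 5.64, 3.24 and 2.59 TPM in sham, 3.71, 8.76 and 6.84 TPM in WT MI and 3.89, 2.27, 2.62 and 1.55 TPM in Foxp3DTR MI. As deposited, the lowest WT MI library lay within the Foxp3DTR range, and after scaling between libraries the groups no longer overlapped, at 4.03 to 9.25 against 1.64 to 3.42 scaled TPM. The log2 fold change between them was -1.23 (SE 0.32). Abcg1 (chr17:31057694-31117981, plus strand), which passes cholesterol to HDL, stood at 51.1, 46.6 and 45.6 TPM in sham, 37.6, 53.4 and 48.8 TPM in WT MI and 53.1, 54.7, 62.2 and 42.4 TPM in Foxp3DTR MI. The 3 groups of Abcg1 overlapped, and its log2 fold change between Foxp3DTR MI and WT MI was -0.05 (SE 0.14), or 0.19 (SE 0.16) without scaling, and it was also above 0 without WT MI library 3 (0.020) or 4 (0.026).

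The LXR genes differed from each other as well. Nr1h2 (chr7:44549616-44553965, minus strand), the broadly expressed LXRβ, was at 68.5, 107 and 71.8 TPM in sham, 63.4, 73.9 and 66.2 TPM in WT MI and 75.0, 72.1, 63.1 and 66.2 TPM in Foxp3DTR MI. These ranges overlapped, and the log2 fold change between Foxp3DTR MI and WT MI was -0.21 (SE 0.16), or 0.03 (SE 0.15) without scaling. Nr1h3 (chr2:91184061-91195116, minus strand), the LXRα of macrophages and liver, was at 11.8, 8.14 and 9.20 TPM in sham, 12.3, 10.3 and 9.61 TPM in WT MI and 10.2, 9.85, 5.48 and 4.09 TPM in Foxp3DTR MI. Foxp3DTR libraries 1 and 2 lay within the WT MI range as deposited and below it after scaling, at 8.99 and 8.62 against 10.9 to 13.4 scaled TPM. The log2 fold change was -0.78 (SE 0.24).

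Pltp (chr2:164839518-164857708, minus strand), the phospholipid transfer protein that remodels HDL, stood at 37.4, 16.8 and 24.2 TPM in sham, 24.0, 40.3 and 24.3 TPM in WT MI and 18.6, 12.3, 22.9 and 14.0 TPM in Foxp3DTR MI. Its Foxp3DTR libraries were below WT MI by a small margin and within the sham range or below it, with a log2 fold change of -0.99 (SE 0.28) against WT MI. Mylip (chr13:45389742-45411940, plus strand), whose product IDOL marks the LDL receptor for degradation, was at 16.5 to 23.2 TPM in sham, 15.1 to 21.1 TPM in WT MI and 14.7 to 20.8 TPM in Foxp3DTR MI. The groups of Mylip overlapped, with a log2 fold change of -0.29 (SE 0.17).

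Lpl (chr8:68880555-68906932, plus strand), the lipase that splits the triglyceride of lipoproteins, went the other way. It stood at 23.9, 18.3 and 21.1 TPM in sham, 8.27, 15.2 and 23.5 TPM in WT MI and 56.4, 63.0, 39.0 and 35.5 TPM in Foxp3DTR MI. All 4 Foxp3DTR libraries were above all 6 WT libraries, as deposited and after scaling. The log2 fold change was 1.41 (SE 0.30) against WT MI and 1.07 (SE 0.30) against sham.

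Pparg (chr6:115360951-115490401, plus strand), the lipid-sensing receptor of fat cells and some macrophages, stood by TPM at 15.4, 7.08 and 5.39 in sham, 11.8, 9.03 and 10.2 in WT MI and 8.02, 3.66, 4.52 and 3.10 in Foxp3DTR MI. The Foxp3DTR libraries were below WT MI by TPM, with a log2 fold change of -1.24 (SE 0.33). The deposited columns disagree on the level of this gene, since its coverage is 0.043 to 0.052 of the value that its FPKM implies. By coverage it had roughly 0.72 to 2.91 reads per library, and its log2 fold change was -0.15 (SE 0.10). The 1 added before the log2 shrinks that change by construction at such low values. Coverage itself was 0.068, 0.062 and 0.049 in WT MI and 0.042, 0.022, 0.028 and 0.019 in Foxp3DTR MI, again without overlap. Pparg enters the counts and medians below by its TPM, with this limit. The same ratio was 0.82 for Apoe, 0.96 for Nr1h3 and 1.00 for the other 7 genes, and it hardly varied between libraries.

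**Figure D2:**
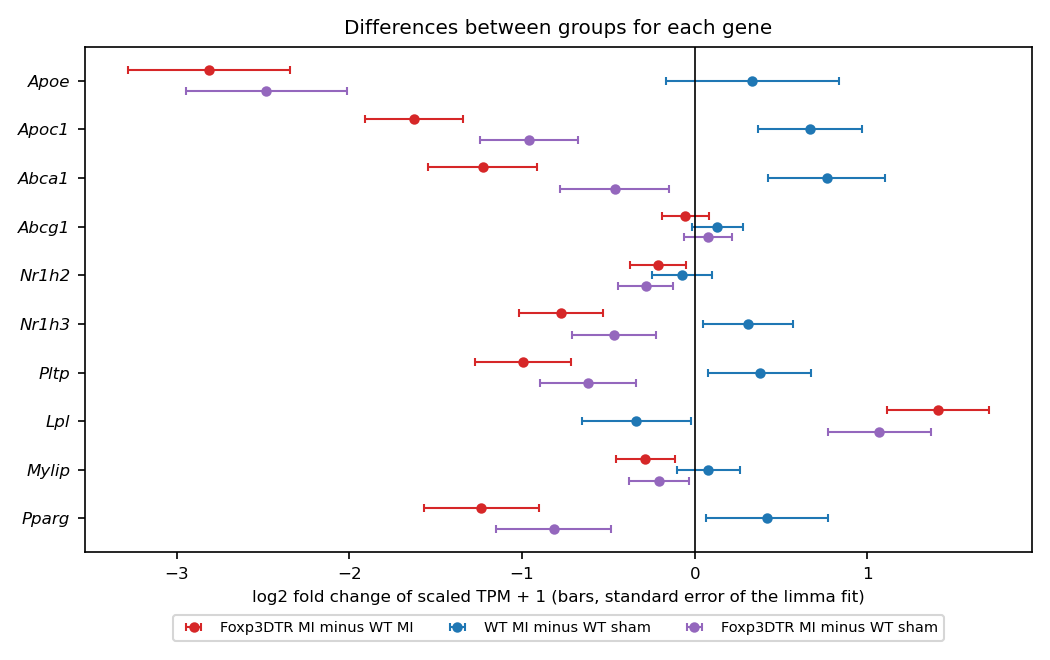
Log2 fold change of scaled TPM + 1 (points) with the SE of the limma fit (bars) for each gene in 3 comparisons. Apoe, Apoc1, Abca1, Nr1h3, Pltp and Pparg lie left of 0 and Lpl lies right of 0 in both comparisons with Foxp3DTR MI, while WT MI against WT sham shows no value beyond 0.76.

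Counted over the list, Apoe and Apoc1 were among the 145 genes past an adjusted p of 0.05 between Foxp3DTR MI and WT MI in limma, 56 of them lower (0.433% of the genes tested) and 89 higher (0.688%). After scaling, 6 of the 10 genes were lower in Foxp3DTR MI with no overlap (Apoe, Apoc1, Abca1, Nr1h3, Pltp and Pparg), where 9.02% of all genes tested were, and 1 was higher with no overlap (Lpl), where 9.97% were. With TPM as deposited, 4 of the 10 were lower with no overlap (all but Abca1 and Nr1h3), where 2.7% of all genes were, and Lpl was again the 1 higher gene, where 21.7% were. The median log2 fold change of the 10 genes was -0.88, against 0.00080 over all genes tested. The list was chosen on this contrast, so nothing is read from these counts. For the same reason, the place of Apoe and Apoc1 among the called genes is a description and no test of them. Neither Apoe nor Apoc1 passed without a filter on low values or with the replicate number as a block. Leaving out 1 library ended the place of both Apoe and Apoc1 among the called genes in 6 of 10 fits, namely without any 1 of the 3 WT MI libraries or of Foxp3DTR libraries 1, 2 and 3. Without WT MI library 2, no gene of 12899 passed in limma and 2424 had an unadjusted p under 0.05. The log2 fold change itself stayed between -3.04 and -2.41 for Apoe and between -1.85 and -1.44 for Apoc1 in these fits.

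WT mice after MI were compared with WT mice after sham surgery, groups that differ in the infarct and perhaps in the toxin, which then cannot be told apart. None of the 10 passed the test against sham (limma, adjusted p between 0.960 and 0.986), and of all 12938 genes 0 did (0%), with 600 at an unadjusted p under 0.05. The largest differences of the 10 were those of Abca1, with a log2 fold change of 0.76 (SE 0.34), and of Apoc1, with 0.67 (SE 0.30), both at an adjusted p of 0.960 in limma. Apoc1 was higher in 3 of 3 WT MI libraries than in any sham library and was the 1 gene of the list with no overlap, where 3.18% of all genes were higher and 3.73% lower with none. Apoe had a log2 fold change of 0.33 (SE 0.50), which became -0.19 (SE 0.44) without sham library 3. Leaving out that library also took Abca1 to 0.56 and Pparg from 0.42 (SE 0.35) to 0.12. Lpl had -0.34 (SE 0.32), which became 0.04 (SE 0.25) without WT MI library 2, where it was lowest. The median of the 10 was 0.32, against -0.0018 over all genes. These values share the WT MI libraries with the comparison above.

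Against sham, Foxp3DTR MI libraries were lower without overlap in Apoe (log2 fold change -2.48, SE 0.47) and higher without overlap in Lpl, and the other 8 genes overlapped. Over all genes tested 8.44% were lower and 9.8% higher with no overlap. Apoc1 had -0.96 (SE 0.28), Pltp -0.62 (SE 0.28), Nr1h3 -0.47 (SE 0.24) and Abca1 -0.46 (SE 0.32). Single libraries moved these values, since without sham library 1 Pltp stood at -0.34 and Abca1 at -0.22, and without Foxp3DTR library 4 Nr1h3 stood at -0.30. None of the 10 was among the 70 genes past an adjusted p of 0.05 in limma (0.541%). Without sham library 3, Apoe stood at -3.01, Apoc1 at -0.85, Pltp at -0.66, Nr1h3 at -0.52, Abca1 at -0.67 and Lpl at 1.05, and the number of genes past the threshold rose to 636.

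Other genes of these pathways were taken in 6 lists. These were chosen with earlier results of these data known, so their counts and p values are given as a description. Between Foxp3DTR MI and WT MI, 0.688% of all genes tested rose past the threshold and 0.433% fell. Among partners and co-regulators of LXR and PPAR, 9 of 12 genes were tested and 0 passed between Foxp3DTR MI and WT MI, with a median log2 fold change of -0.02. The lowest p values were those of Ppargc1b, a coactivator of PPARs and oestrogen-related receptors (0.73, SE 0.18, adjusted p 0.0788 in limma), the corepressor Nrip1 (0.47) and the retinoid X receptor Rxrb (-0.45). Against sham, Ppargc1b rose in Foxp3DTR MI, at 11.7, 10.2, 8.54 and 7.74 TPM against 3.65, 3.30 and 4.15 TPM (log2 fold change 1.09, SE 0.18, adjusted p 0.0392 in limma), and was the 1 gene of the 6 lists that passed there, where 0.541% of all genes tested passed. The WT MI libraries of Ppargc1b were at 3.49, 5.05 and 4.92 TPM. Its call was lost in 8 of 10 fits that left out a library, all but those without sham library 3 or WT MI library 2, and also with a pseudocount of 0.1, without a filter, with only the 2 groups and with the replicate number as a block.

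Of 16 other LXR target genes, 14 were tested and 0 passed between Foxp3DTR MI and WT MI, where 0.688% of all genes tested rose and 0.433% fell. The median log2 fold change of these 14 was 0.22, against 0.00080 over all genes tested, with 10 above 0 and 4 below. Fads1, a fatty acid desaturase, had 0.93 (SE 0.20, adjusted p 0.0544 in limma), with 7.44 to 10.2 TPM in Foxp3DTR MI and 2.92 to 4.19 TPM in WT MI libraries. Apoc2, the cofactor of lipoprotein lipase that is coded in the same cluster as Apoe, had -0.96 (SE 0.23, adjusted p 0.0741 in limma), and Arl4c, an ADP-ribosylation factor-like protein, had -0.45. Among 7 tested PPARγ target genes of 10, 0 passed and the median was 0.39. The lipid droplet protein Plin2 had 0.80 (SE 0.22, adjusted p 0.106 in limma), at 218 to 330 TPM in Foxp3DTR MI and 109 to 158 TPM in WT MI libraries, and the acyl-CoA dehydrogenase Acadl had 0.66.

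Of the receptors and binding partners of APOE, 8 of 9 were tested. Between Foxp3DTR MI and WT MI, 0 of them rose, where 0.688% of all genes tested did, and 1 fell, where 0.433% did. This was Sorl1, a sorting receptor of the LDL receptor family, at 190, 172, 203 and 177 TPM in Foxp3DTR MI against 238, 223 and 217 TPM in WT MI (log2 fold change -0.53, SE 0.10, adjusted p 0.0473 in limma). The sham libraries of Sorl1 were at 229, 202 and 208 TPM, and its call was lost in 8 of 10 fits that left out a library and in 5 of 13 other settings, namely without scaling, without a filter, without a variance trend, with a robust fit and with the replicate number as a block. The lipolysis-stimulated receptor Lsr had -0.84 (SE 0.21, adjusted p 0.0812 in limma) and the endocytic receptor Lrp1 had -0.52 (SE 0.14, adjusted p 0.0961 in limma). Of 18 genes of sterol storage, transport and HDL, 16 were tested and 0 passed, with a median of -0.16. Cyp27a1, which makes an oxysterol ligand of LXR, had -0.79 (SE 0.21, adjusted p 0.0916 in limma), at 78.5 to 99.8 TPM in Foxp3DTR MI against 108 to 160 TPM in WT MI. The HDL receptor Scarb1 had -0.67 and the transporter Abca7 had -0.24.

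Of the partners of lipoprotein lipase and other lipases, 6 of 14 were tested, 0 passed between Foxp3DTR MI and WT MI and the median was 0.02. Over all genes tested, 0.688% rose and 0.433% fell there. The lowest p was that of Lmf1, a factor that lipases need to mature, at -0.55 (SE 0.16, adjusted p 0.118 in limma). Between WT MI and sham, 0 genes of the 6 lists passed, and medians lay between -0.27 and 0.05.

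**Figure D3:**
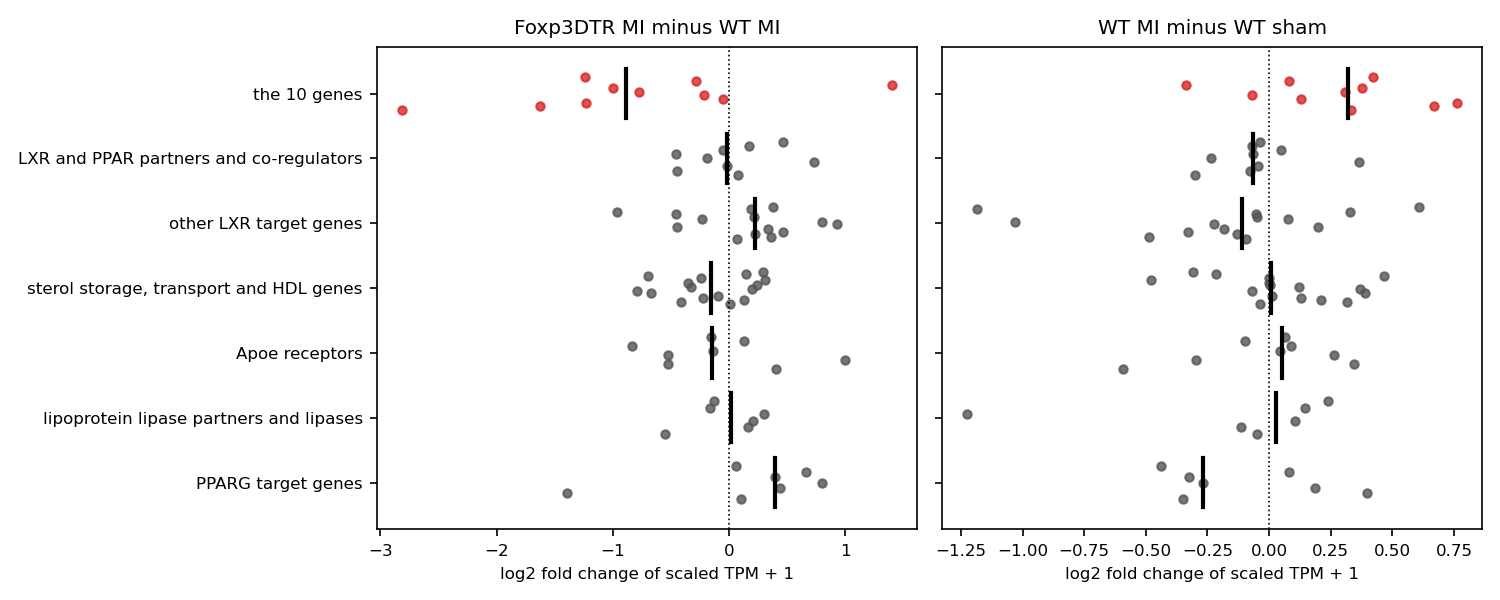
Log2 fold changes of scaled TPM + 1 of single genes (points) and their median (black bar) for the 10 genes and the 6 pathway lists, in Foxp3DTR MI minus WT MI (left) and WT MI minus WT sham (right). The horizontal axes of the panels differ in range. On the left the 10 genes have their median at -0.88 and the pathway lists have theirs between -0.16 and 0.39.

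Markers of other cell types moved with these results. Whether their RNA came from other cells or from the sorted cells was not tested. The marker lists were chosen with earlier results of these data known, so the p values of markers here and below are given as a description. Markers of Ly6C-low monocytes, the patrolling cells that arise from Ly6C-high monocytes, summed to 1963, 2046 and 1113 TPM in sham, 1700, 1797 and 1269 TPM in WT MI and 1009, 954, 1030 and 847 TPM in Foxp3DTR MI. Of the 10, 3 fell between Foxp3DTR MI and WT MI in limma, namely Cx3cr1 (log2 fold change -2.56, adjusted p 0.0151), Adgre4 (-1.61, adjusted p 0.0372) and Ace (-1.53, adjusted p 0.0413), and 8 were lower with no overlap, where 0.433% of all genes tested fell and 9.02% were lower with no overlap. The call of Cx3cr1 was lost without WT MI library 2, WT MI library 3 or Foxp3DTR library 3, and those of Adgre4 and Ace were lost without any 1 of the 7 MI libraries, without a filter and without a variance trend. Both Apoe and this sum were lowest among WT libraries in sham library 3. The part of Ly6C-low monocytes in the difference of Apoe was not tested.

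Markers of splenic macrophages, cells rich in Apoe, summed to 243 to 382 TPM in sham, 287 to 349 TPM in WT MI and 217 to 335 TPM in Foxp3DTR MI. The groups overlapped in these sums, which are of TPM as deposited. Once divided by the scaling factors (0.95 to 1.14 in Foxp3DTR MI, 0.86 to 0.95 in WT MI), the Foxp3DTR MI sums lie below those of WT MI. Of the 15 macrophage markers, 13 were tested and 0 passed in the 3 comparisons. Timd4 was listed at 0 in all WT MI libraries, and Marco and Cd5l were listed at 0 in 2 of these 3. Between Foxp3DTR MI and WT MI, 6 of the 13 tested macrophage markers had a log2 fold change above 0 and 7 below 0 (median -0.07). The lowest p was that of Spic, the factor that makes red pulp macrophages. It was at 5.87 to 16.5 TPM in Foxp3DTR MI and 13.3 to 28.7 TPM in WT MI (log2 fold change -1.42, SE 0.33, adjusted p 0.0685 in limma). Dendritic cell markers summed to 51.6 to 75.8 TPM in Foxp3DTR MI and 80.7 to 127 TPM in WT MI. Of these 8 markers 0 passed, where 0.688% of all genes tested rose and 0.433% fell. Neutrophil markers summed to 1296 to 2659 TPM in Foxp3DTR MI, 169 to 472 TPM in WT MI and 346 to 1406 TPM in sham, the highest of these in sham library 3. Of the 11 neutrophil markers, 3 rose between Foxp3DTR MI and WT MI, where 0.688% of all genes tested rose. T-cell and NK cell markers were also above the WT MI range in all Foxp3DTR libraries, at 38.9 to 154 against 9.26 to 10.7 TPM and at 106 to 233 against 29.4 to 74.4 TPM. In sham these sums were 14.2 to 180 TPM for T-cells and 62.2 to 241 TPM for NK cells, both highest in library 3. Markers of B and plasma cells were above the WT MI range too, at 39.3 to 130 against 16.7 to 23.5 TPM, with 22.4 to 257 TPM in sham. Among the single T-cell, NK cell and B and plasma cell markers, Gzmb of NK cells rose (adjusted p 0.0428 in limma). Cd79b of B cells fell (adjusted p 0.0496 in limma), where 0.433% of all genes tested fell. The markers of Ly6C-high monocytes, the sorted cells, summed to 11775 to 13814 TPM in Foxp3DTR MI, 8487 to 9426 TPM in WT MI and 8507 to 11750 TPM in sham. These sums are of TPM as deposited, and once divided by the scaling factors those of Foxp3DTR MI and WT MI overlap. Of these 10 markers 0 passed between Foxp3DTR MI and WT MI, with 6 above 0 and 4 below (median log2 fold change 0.12). With no overlap, 3 were higher, where 9.97% of all genes tested were, and 1 was lower (Csf1r), where 9.02% were. The part of these cell types in the differences of the 10 genes was not tested.

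**Figure D4:**
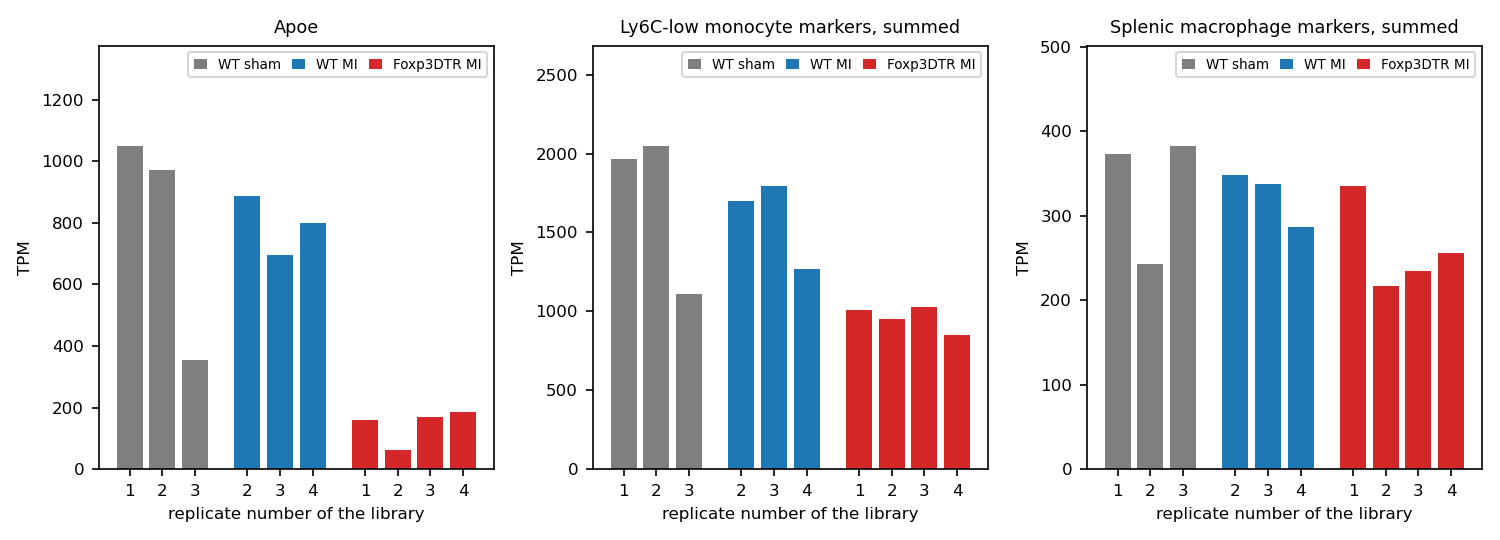
TPM of Apoe and summed TPM of the markers of Ly6C-low monocytes and of splenic macrophages in each library (bars from 0, labelled by replicate number). Apoe and the Ly6C-low sum are lowest in the 4 Foxp3DTR libraries and, within sham, in library 3, whereas the macrophage sums of the groups overlap in TPM as deposited.

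The genes with a profile most like that of Apoe were sought among 10174 other genes at a mean of 5 TPM or more, by the root-mean-square difference of centred log2 levels over the 10 libraries. This measure would be 1.44 for a gene that does not vary. The 5 nearest were Hpgd (0.47), which inactivates prostaglandins, the fractalkine receptor Cx3cr1 (0.49), the cytokine receptor Flt3 (0.56), the membrane protein Tmem176b (0.61) and Gm5086 (0.68). Hpgd was at 210, 221 and 63.6 TPM in sham, 202, 157 and 103 TPM in WT MI and 54.1, 23.0, 31.6 and 26.4 TPM in Foxp3DTR MI, so that it shared with Apoe the low sham library 3. Cx3cr1 and Flt3 are also in the marker lists of Ly6C-low monocytes and of dendritic cells. Of the 10 genes, Abca1 was below the cut of 5 TPM and was not ranked. Among those ranked, Apoc1 was nearest to Apoe (0.89, place 26), then Pparg (0.95, place 45) and Pltp (1.09, place 138). Lpl was among the farthest (2.08, place 9866). This is a description of shared levels over 10 libraries that fall into 3 groups.

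**Figure D5:**
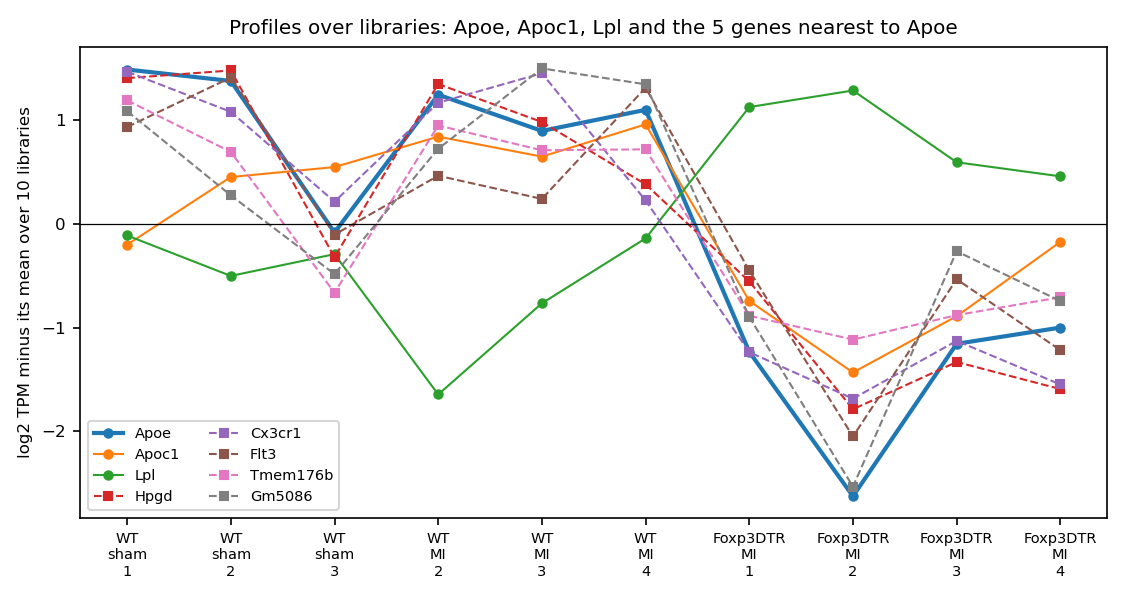
Log2 of deposited TPM minus its mean over the 10 libraries for Apoe, Apoc1, Lpl (circles) and the 5 genes nearest to Apoe (squares), with lines that only join points of 1 gene. Apoe and the 5 genes lie below 0 in the 4 Foxp3DTR libraries and above 0 in the 3 WT MI libraries, and Lpl does the reverse.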

How the data were processed

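RNA sequencing of sorted splenic Ly6C-high monocytes gave 10 libraries. Per the labels and the methods, single-end reads of 50 bases were trimmed with cutadapt and mapped with STAR, and the submitters' processing notes list STAR 2.5, StringTie 1.3.0, cutadapt 1.1 and CASAVA 1.4 with the build mm10. The authors deposited 1 gene table per library with coverage (a signal, the mean depth over exons), FPKM (corrected for length and library size) and TPM. The deposited TPM has 1 fixed total per library, so a few abundant RNAs can move all others. The tables hold no counts, so the count test of the study (DESeq2) was not used and TPM values have no counting interval. The ratio of coverage to FPKM gave the depth and was constant within 1% for 84.9 to 85.2% of entries per library.

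TPM was summed per symbol, scaled between libraries by median-of-ratios factors (0.86 to 1.14) and taken as log2 of the scaled TPM + 1, which understates the change of low genes. Genes that reached 1 TPM in 3 libraries or more were fitted with limma 3.58.1 in R 4.3.3, with group means over all 10 libraries, a variance trend, two-sided tests and Benjamini-Hochberg adjustment over all genes tested. The fit was tested on simulated data. Groups were said not to overlap on scaled TPM unless stated otherwise.

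The 10 genes, the 6 pathway lists and the 9 marker lists were chosen with earlier results of these data known. Named besides the 10 genes were list members past the threshold and up to 3 of lowest p per list. Markers and the 5 genes nearest to Apoe in profile were named as well. Trac and Angptl8 were not in the tables used here. Reads per gene were reckoned from coverage and the GENCODE vM21 protein-coding transcript whose ends were nearest to those in the tables. Promoters are those of RefSeq on GRCm38.p6, and the search for the best DR4 match was added after the exact search. Whether counting used strand was not found in the sources, and overlapping genes may share reads. The alternatives left out each library in turn, blocked on the replicate number, used array weights, a robust fit or no variance trend, and fitted only the groups compared. Others changed the filter (none, or 5 TPM), the pseudocount (0.1 or 5), the unit (FPKM) or the scaling (none, or quantile normalization). Coverage in place of TPM was added after seeing the data.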

Additional observations from a re-analysis of the deposited data

How the results depend on the processing

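Apoe stayed between -2.92 and -2.57 (log2 fold change, Foxp3DTR MI against WT MI) under 13 other settings, and Apoc1 between -1.84 and -1.10, the last with a pseudocount of 5, which by construction shrinks low values. The number of genes past the threshold moved more. In Foxp3DTR MI against WT MI it was 145, and 527 without scaling (92.6% of them higher, against 61.4%), 22 without a filter, 578 with only the 2 groups, 74 without a variance trend and 398 with array weights. Against sham it was 70, and 23 with a pseudocount of 0.1, 11 without a filter, 10 with only the 2 groups and 29 without a variance trend. In WT MI against sham it was 0, and 3 with only the 2 groups. Leaving out 1 library gave 0 to 431, 3 to 636 and 0 to 2 genes in these comparisons, the extremes without WT MI replicate 2 and sham replicate 2, without sham replicates 1 and 3, and, at 2 genes, without Foxp3DTR replicate 2. Beyond the number of samples or genes in the fit, the cause was not tested. Without scaling the median of all genes shifted by 0.22, -0.17 and 0.05 in Foxp3DTR MI against WT MI, WT MI against sham and Foxp3DTR MI against sham.

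With the replicate number as a block there were 81, 16 and 0 genes past the threshold in Foxp3DTR MI against WT MI, against sham and in WT MI against sham, and Apoe and Apoc1 were no longer among the first, nor were they without a filter. The numbers are not known to pair samples, since deviations of same-numbered libraries correlated at -0.19 to 0.19.

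Of 690 values of the 10 genes under the alternatives, 12 changed sign, 8 of them in WT MI against sham and 4 in Foxp3DTR MI against WT MI. The 4 were those of Abcg1 without scaling (0.19) or without WT MI replicate 3 (0.020) or 4 (0.026) and of Nr1h2 without scaling (0.03). In WT MI against sham, without scaling Abcg1 stood at -0.048 and Mylip at -0.093, and with array weights Nr1h2 stood at 0.075. Leaving out 1 library gave -0.19 (without sham replicate 3) to 0.61 for Apoe, -0.20 to 0.16 (without sham replicate 2) for Nr1h2, -0.71 to 0.042 (without WT MI replicate 2) for Lpl and -0.024 (without WT MI replicate 3, and -0.011 without sham replicate 3) to 0.22 for Mylip. In Foxp3DTR MI against WT MI, Abca1 (-0.69) and Apoc1 (-1.10) with a pseudocount of 5, Mylip without scaling (-0.06) and Pparg by coverage (-0.15, and -0.08 against sham) kept their sign but moved by more than the spread between libraries. For Pparg by coverage, the added 1 shrinks the change by construction. Depth limits Apoc1 and Pparg most.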
